A study of Mus musculus with 4 samples.

Results

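The Notch pathway was examined in RNA-seq of mouse embryonic stem cells (mESCs) labelled WT and *Spen* knockout, through 10 genes chosen by name: the receptors *Notch1*, *Notch2*, *Notch3* and *Notch4*, the ligands *Dll1* and *Jag1*, the DNA-binding factor *Rbpj*, and the target genes *Hes1*, *Hey1* and *Nrarp*. All 10 were found among the 37310 genes of the count table, and all 10 are protein-coding. The libraries came from the HATX mESC line, of mixed genomic background, which carries on its X chromosome an *Xist* transgene inducible with doxycycline. The study describes these cells as haploid. Its WT form (2 libraries) was compared with clone 2 of the same line carrying a deletion of all or most of *Spen* (*Spen* KO, 2 libraries). The labels state no treatment, and both groups were grown in serum and LIF on gelatin. The knockout group is 1 clone, and whatever else sets that clone apart from the WT line enters each fold change. Nothing says that the 2 libraries of a group came from separate cultures, so p-values measure the spread between these libraries, which may be technical.

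Notch signalling passes between touching cells. A ligand of the Delta or Jagged family on one cell binds a Notch receptor on its neighbour, proteases then cut the receptor, and its intracellular part enters the nucleus. There it joins RBPJ, which sits on target promoters, and with a Mastermind coactivator it turns on genes such as *Hes1*. In the absence of that signal RBPJ binds corepressors, and Spen (also called MINT or SHARP) is such a corepressor. Notch activity in embryonic stem cells is known mostly for its part in leaving the undifferentiated state.

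Gene-level counts of *Spen*, the targeted gene, neither back nor contest the label. Its normalized counts (raw counts divided by the DESeq2 size factor of the library) were 3716 and 3047 in WT and 7797 and 6242 in the libraries labelled KO, a log2 fold change of 1.05 ± 0.21 (SE). Gene-level counts do not resolve which exons remain, and the group is therefore called KO-labelled. Embryonic stem cell markers were present in all libraries, with summed normalized counts for *Pou5f1*, *Sox2*, *Nanog*, *Zfp42*, *Esrrb* and *Klf4* between 129573 and 138664. Total counts per library ran from 36667685 to 61908422.

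Of the 10 genes, 5 fell and 2 rose in the KO-labelled libraries at an adjusted p under 0.05 (DESeq2 with Benjamini-Hochberg adjustment over all genes tested). *Notch2*, *Notch3*, *Jag1*, *Hes1* and *Hey1* were lower, and *Notch4* and *Rbpj* were higher. Among all 17710 genes tested the shares were 15.8% lower and 16.4% higher, so that 32.3% passed in either direction, against 7 of these 10. At the study's stricter thresholds (at least 2-fold with an adjusted p below 0.001) DESeq2 called 0 of 10 and edgeR 0 of 10. No share over all genes was computed for edgeR. Of all genes tested, DESeq2 called 1.36% higher and 3.15% lower at these thresholds, 4.51% in all. The fall of *Hey1* exceeded 2-fold but its adjusted p did not reach 0.001. The median log2 fold change was -0.37 over the 10 genes and 0.005 over all genes tested. In 9 of the 10 the libraries of the groups did not overlap, which was so for 70.2% of all genes tested.

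**Figure D1:**
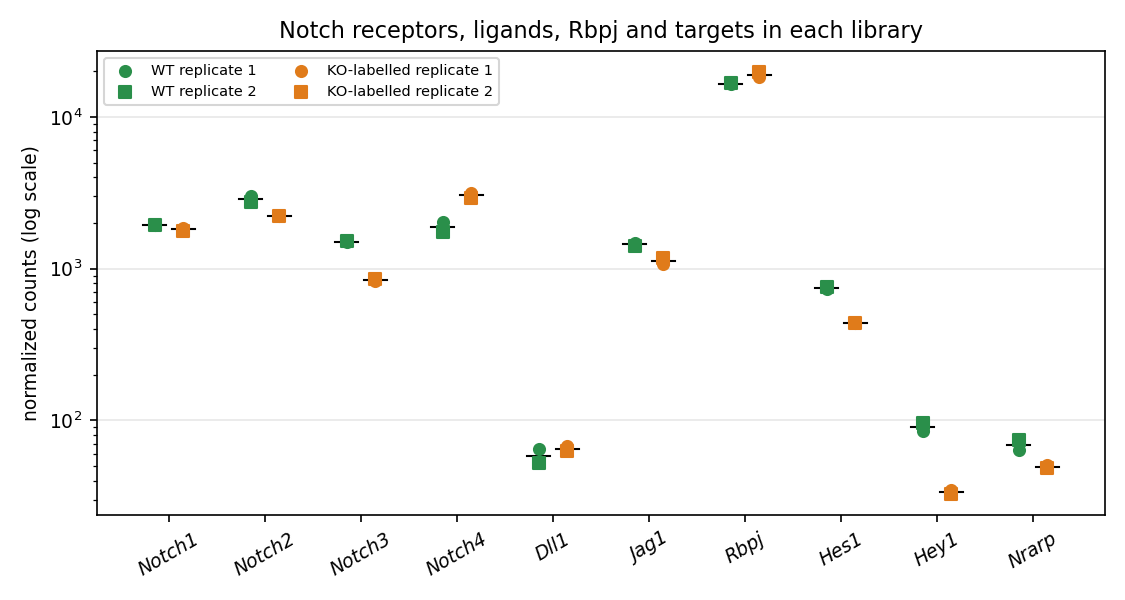
Normalized counts (log axis) of each of the 10 genes in the 2 WT (green) and 2 KO-labelled (orange) libraries, with circles for replicate 1, squares for replicate 2 and a black bar at the group mean. The groups are apart in every gene but *Dll1*, and *Rbpj*, at 16356 to 19780, lies far above the rest.

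The 4 receptors did not move together. *Notch3* (chromosome 17, 32257765 to 32303825, minus strand; coordinates are mm9 throughout unless another build is named), a receptor best known from vascular smooth muscle, had normalized counts of 1497 and 1516 in WT and 832.4 and 854.5 in KO-labelled ones. Both KO-labelled values lay well under both WT values, and *Notch3* fell 1.79-fold, by -0.84 ± 0.11 (SE) on the log2 scale (DESeq2 adjusted p = 4.83e-12).

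*Notch4* (chromosome 17, 34701213 to 34725448, plus strand), a receptor best known from blood vessel endothelium, went the other way on the same chromosome. Its normalized counts were 2038 and 1743 in WT and 3153 and 2919 in the KO-labelled libraries. Both KO-labelled libraries were above both WT libraries, a rise of 1.61-fold, with a log2 fold change of 0.68 ± 0.10 (SE) and an adjusted p of 6.24e-10 in DESeq2. Both calls held with each library left out in turn. The annotation gives *Notch4* 12 transcripts, which gene-level counts do not separate.

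*Notch2* (chromosome 3, 97817461 to 97954290, plus strand) had the highest normalized count of the receptors in WT, at 2986 and 2754, against 2231 and 2222 in the KO-labelled libraries. Its groups did not overlap either, and it fell 1.29-fold, with a log2 fold change of -0.37 ± 0.09 (SE) and a DESeq2 adjusted p of 0.000416. Without WT replicate 1 the adjusted p was 0.076. *Notch1* (chromosome 2, 26313423 to 26372183, minus strand), the receptor most studied in early development, was not called. Its normalized counts were 1945 and 1933 in WT and 1844 and 1780 in the KO-labelled libraries, and the 95% interval of its log2 fold change ran from -0.29 to 0.09. A change of *Notch1* as large as that of *Notch3* or *Notch4* thus lay outside its interval.

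Counts of different genes were compared per length, as counts divided by exonic length and by the total count of the library (FPKM). On that scale the 4 receptors summed to 17.7 and 16.8 in WT and 17.6 and 16.6 in the KO-labelled libraries, so the summed level differed less between groups than between the libraries of a group. Its make-up differed. *Notch4* made up 29.4% and 26.9% of the summed level in WT and 46.8% and 45.0% in the KO-labelled libraries. *Notch3* made up 21.6% and 23.5% in WT and 12.4% and 13.2% in the KO-labelled libraries. For *Notch2* the share went from 32.9% ± 0.282 to 25.8% ± 0.630 (SD, n = 2), while that of *Notch1* was 16.4% ± 0.724 and 15.5% ± 0.0320. *Notch2* was thus the leading receptor in both WT libraries and *Notch4* in both KO-labelled ones, although with the longest transcript as gene length *Notch4* led in WT too (30.1% against 28.7%).

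A ratio of counts within a library needs no scaling between libraries. The count ratio of *Notch4* to *Notch3* was 1.36 and 1.15 in WT and 3.79 and 3.42 in the KO-labelled libraries, and that of *Notch3* to *Notch1* was 0.770 and 0.784 against 0.451 and 0.480. Neither ratio overlapped between groups. With 2 libraries against 2, an exact two-sided permutation test of such a value cannot go below p = 0.333, and none is given.

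**Figure D2:**
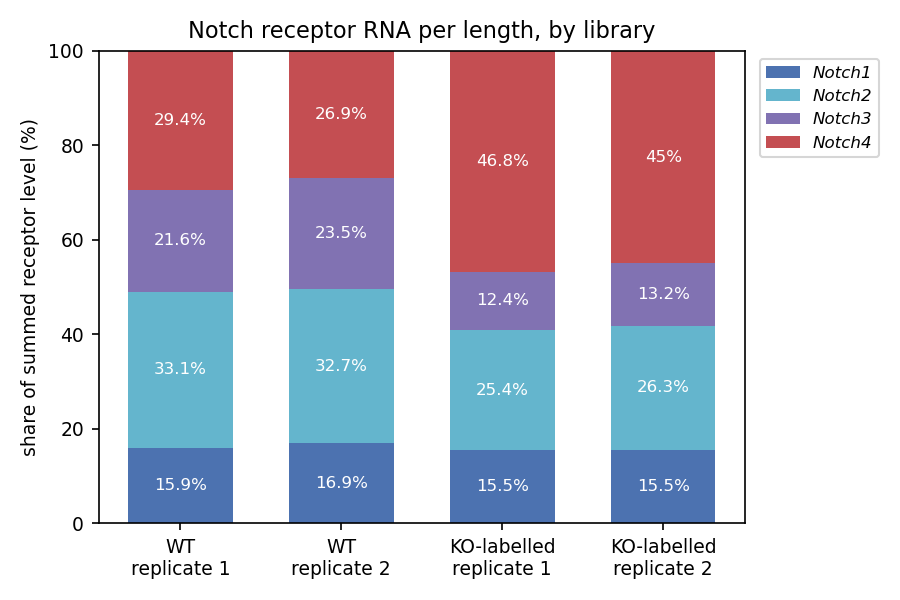
Share (%) of each Notch receptor in the summed per-length level of the 4 receptors, as stacked bars for each library. The *Notch4* segment grows from 26.9% to 29.4% in WT to 45.0% to 46.8% in the KO-labelled libraries, and the *Notch3* segment shrinks from 21.6% to 23.5% to 12.4% to 13.2%.

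Of the ligands, *Jag1* (chromosome 2, 136907192 to 136942380, minus strand), a Jagged ligand, had normalized counts of 1473 and 1417 in WT and 1072 and 1171 in the KO-labelled libraries. It fell 1.29-fold, with a log2 fold change of -0.37 ± 0.11 (SE) and a DESeq2 adjusted p of 0.00581. The groups did not overlap, but the call was lost in 3 of the 4 fits without 1 library: the adjusted p was 0.143 without WT replicate 1, 0.0802 without WT replicate 2 and 0.194 without KO-labelled replicate 1. It held without KO-labelled replicate 2, at 0.0459.

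*Dll1* (chromosome 17, 15504318 to 15513836, minus strand), a Delta ligand of somites and neural progenitors, had the lowest per-length level of the 10 on average over the 4 libraries, between 0.260 and 0.338, although in the KO-labelled libraries *Hey1* was about as low (means of 0.322 for *Dll1* and 0.320 for *Hey1*). Its raw counts were 49 and 48 in WT and 78 and 80 in the KO-labelled libraries, which after scaling gave 65 and 52.3 against 67.9 and 62.6 normalized counts. The groups overlapped, and the 95% interval of the log2 fold change ran from -0.68 to 1.00. A rise of up to 2-fold and a smaller fall both lie within it. A lincRNA on the other strand, *A930024N18Rik*, covers 20.55% of its exonic bases and itself had at most 2 counts in any library.

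*Rbpj* (chromosome 5, 53947018 to 54048684, plus strand) encodes the DNA-binding factor through which all 4 receptors act. It was by far the most abundant of the 10, at a per-length level of 57.8 and 60.2 in WT and 65.5 and 70.2 in the KO-labelled libraries. Normalized counts were 16356 and 16725 in WT and 18155 and 19780 in the KO-labelled libraries. *Rbpj* was higher by 1.15-fold, or 0.20 ± 0.07 (SE) on the log2 scale (DESeq2 adjusted p = 0.0183). This call was not held by edgeR (adjusted p = 0.0515), nor with the median of chromosome 5 removed (0.130, DESeq2), nor without WT replicate 1 (0.167), WT replicate 2 (0.0898) or KO-labelled replicate 2 (0.342).

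A processed copy of *Rbpj*, *Rbpsuh-rs3* (chromosome 6, 46479350 to 46480921), lies at a place in the genome where 3866 bases match the *Rbpj* exons at 99.5% identity, and 67.9% of the exonic bases of *Rbpj* have such a copy. How reads with several matches were handled was not stated, so the split between these genes is uncertain. *Rbpsuh-rs3* had 190 and 220 counts in WT and 356 and 369 in the KO-labelled libraries, 1.43% to 1.71% of the *Rbpj* count. With the counts of both genes summed, the log2 fold change of *Rbpj* stayed at 0.20.

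The RBPJ protein is known to bind DNA with the core letters TGGGAA. Promoter sequences from RefSeq (GRCm38.p6, a later build than that of the counts) were searched for TGGGAA and for the longer GTGGGAA, on both strands, in the 250 bases before each start. Of the 10 genes 8 had an entry, and *Hes1* and *Hey1* did not. *Rbpj* was the 1 gene of those 8 with TGGGAA in this window, and 0 of 8 held GTGGGAA, beside 21.59% and 5.42% of all 32851 promoters. The longer motif contains the shorter, so these shares overlap. The 2 matches before *Rbpj*, at 149 and 65 bases before the first of its listed starts, are shown because they stand before the factor's own gene. Capitals mark TGGGAA or, where it is read on the other strand, TTCCCA.
*Rbpj*, chr5:53590180-53590219, plus strand: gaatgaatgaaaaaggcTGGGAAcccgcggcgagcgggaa
*Rbpj*, chr5:53590264-53590303, plus strand: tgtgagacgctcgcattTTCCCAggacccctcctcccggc

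In all 3 target genes both KO-labelled libraries lay below both WT libraries. Groups without overlap, in either direction, were found for 70.2% of all genes tested. For *Hes1* and *Hey1* the fall passed the test, and for *Nrarp* it did not. *Hes1* (chromosome 16, 30064470 to 30067882, plus strand), a basic helix-loop-helix repressor and the best known direct target of RBPJ, had normalized counts of 730.5 and 753.6 in WT and 437.1 and 439.0 in the KO-labelled libraries. Libraries of a group lay close together beside the gap between groups, and *Hes1* fell 1.69-fold, with a log2 fold change of -0.76 ± 0.15 (SE) and an adjusted p of 3.56e-06 in DESeq2. Genes of chromosome 16 were lower as a whole, with a median log2 fold change of -0.23 (-0.235). With that median removed *Hes1* stood at -0.53, with a DESeq2 adjusted p of 0.00277. It also stayed past the test with each library left out.

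*Hey1* (chromosome 3, 8663362 to 8667039, minus strand), a repressor of the related HEY family, had the largest fold change of the 10 and few reads. Raw counts were 64 and 88 in WT and 40 and 42 in the deeper KO-labelled libraries, which gave 84.9 and 95.8 against 34.8 and 32.9 normalized counts. Both KO-labelled values lay far below both WT values. *Hey1* fell 2.67-fold, with a log2 fold change of -1.42 ± 0.43 (SE) and a DESeq2 adjusted p of 0.00486. Without any 1 of the 4 libraries the adjusted p was between 0.0816 and 0.182, with log2 fold changes from -1.5 to -1.32.

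*Nrarp* (chromosome 2, 25036278 to 25038850, plus strand) encodes an ankyrin repeat protein that damps Notch signalling in a feedback loop. Its raw counts were 48 and 68 in WT and 58 and 62 in the KO-labelled libraries. Normalized counts were 63.6 and 74.1 against 50.5 and 48.5, lower in both KO-labelled libraries, but the test did not separate the groups (log2 fold change -0.48, 95% interval -1.33 to 0.38). Neither no change nor a fall as large as that of *Hes1* can be told from these counts. The summed normalized count of the 3 targets was 879.0 and 923.5 in WT and 522.4 and 520.4 in the KO-labelled libraries, and *Hes1* made up most of it.

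**Figure D3:**
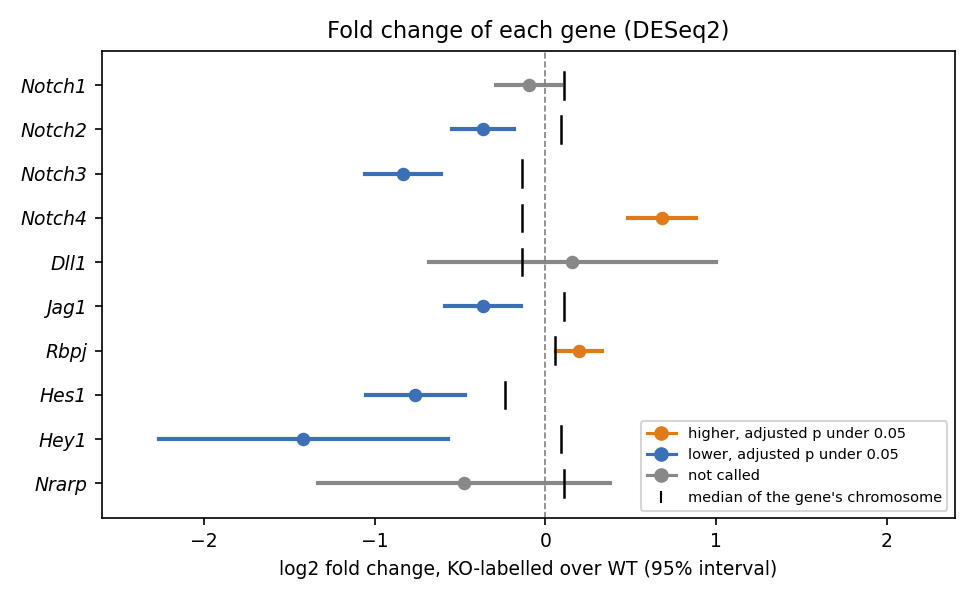
Log2 fold change (KO-labelled over WT) of each gene with its 95% interval from DESeq2, orange where higher, blue where lower and grey where not called, with a black tick at the median log2 fold change of the gene's chromosome. *Hey1*, at -1.42, and *Notch3*, at -0.84, lie lowest, *Notch4*, at 0.68, lies highest, and the intervals of *Dll1* and *Nrarp* are wide.

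In order of per-length level over the 4 libraries, *Rbpj* (mean 63.4) was followed by *Notch4* (6.35), *Hes1* (6.02), *Notch2* (5.04), *Jag1* (4.57), *Notch3* (3.04), *Notch1* (2.74), *Hey1* (0.586), *Nrarp* (0.478) and *Dll1* (0.305). Only 3 steps of this order were free of overlap between the ranges of neighbouring genes over the 4 libraries: *Rbpj* to *Notch4*, *Notch1* to *Hey1* and *Nrarp* to *Dll1*. In WT alone *Hes1* stood second at 7.56 ± 0.264 (SD, n = 2) and in the KO-labelled libraries *Notch4* did at 7.84 ± 0.520.

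The surroundings of each gene were described after its values were seen, by the nearest tested genes, up to 5 on each side, whose normalized counts averaged 50 or more. Around *Notch4* 0 of 10 neighbours rose and 2 fell at an adjusted p under 0.05 in DESeq2, and around *Notch3* 1 of 10 rose and 1 fell. Around *Hes1* 1 rose and 3 fell, with a median log2 fold change of -0.12, and around *Hey1* 0 rose and 2 fell among 9. Around *Jag1* 0 rose and 4 fell, with a median of -0.18, and around *Rbpj*, itself higher, 1 rose and 4 fell, with a median of 0.10. Around *Notch1*, which was not called, 6 of 10 neighbours rose and 1 fell, with a median of 0.31. Around *Notch2* 3 rose and 2 fell, around *Dll1* 1 rose and 1 fell, and around *Nrarp* 3 rose and 0 fell. Over all genes tested, with no minimum count, 16.4% rose and 15.8% fell. Antisense lincRNAs cover 7.5% and 2.91% of the exonic bases of *Notch1* and 6.07% of those of *Notch3*, and these had at most 31 counts in any library.

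Markers of cell types other than stem cells were summed as well, and the lists did not all go one way. Summed normalized counts of 5 trophoblast markers were 393.2 to 405.7 in WT and 73.7 to 94.1 in the KO-labelled libraries, with 3 of the 4 that had an adjusted p lower. For 6 primitive streak and mesoderm markers the sums were 1209 to 1239 and 471.9 to 472.0, with 3 of 5 lower, and for 5 primitive endoderm markers 423.0 to 430.2 and 180.8 to 205.5, with 2 of 4 lower. Of 5 neuroectoderm markers, 1 of 4 was lower, namely *Pax6* (420.3 and 480.2 against 89.7 and 89.2). The sums were 9105 to 9192 and 8195 to 8545, most of them from *Tubb3*, which has copies over 92.67% of its exonic bases. Of 6 fibroblast markers 1 of 5 was higher, at sums of 210.8 to 217.9 and 472.7 to 536.1, most of them from *Thy1*, the gene called (118.0 and 137.2 against 356.1 and 414.0). Of all markers, only *Elf5* of the trophoblast list was at 0 in every library of a group, the KO-labelled one. This gene was sparse in WT too, at 4 and 4 raw reads, too few for an adjusted p, so its loss cannot be told from these values. In bulk RNA fewer cells of a type and less RNA per cell cannot be told apart, and the part of such cells in the fall of *Hes1*, *Hey1*, *Notch3* and *Jag1* was not tested.

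The wider pathway was followed through 61 other genes listed by role, of which 57 had an adjusted p. Of these 13 rose and 12 fell, or 43.9%, with a median log2 fold change of -0.08 beside 0.005 for all genes tested. edgeR called 15 higher and 17 lower. The shares called by DESeq2 over all genes tested were 16.4% higher and 15.8% lower, or 32.3% in all. They are the background for the DESeq2 counts of the 57 genes and of the role lists. For edgeR and the alternative fits no such share was computed, so their counts have no background here. Among other ligands, *Jag2*, the other Jagged ligand, had 1104 ± 153 normalized counts in WT and 736 ± 31.0 in the KO-labelled libraries (SD, n = 2) and fell by 0.58 on the log2 scale (SE 0.14). *Dll3* was not called, and *Dll4* had 2 and 2 counts in WT and 14 and 11 in the KO-labelled libraries, too few for an adjusted p.

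Among 7 other HES and HEY genes, 1 of the 4 with an adjusted p was lower and 0 higher. That gene was *Hes6*, at 606 ± 53.7 and 418 ± 47.2 normalized counts (SD, n = 2), or -0.54 ± 0.17 (SE) on the log2 scale. It encodes a HES relative that opposes HES1. The others were sparse, among them *Hes5*, the RBPJ target of neural progenitors, with 2 and 2 raw counts in WT and 9 and 11 in the KO-labelled libraries. *Hes7* had 4 and 2 against 14 and 6, and *Hey2* had 18 and 24 against 12 and 14. Of the 4 genes of this list with a promoter entry, 3 (*Hes5*, *Hes7* and *Hey2*) held GTGGGAA in the 250 bases before the start, where 5.42% of all promoters do. Among the other pathway genes GTGGGAA also stood before *Spen*, *Psen2* and *Lfng*, at mean normalized counts of 5201, 528 and 259. The matches of *Hes5*, *Hes7* and *Hey2* are shown because they belong to the HES and HEY list. These genes had at most 24 raw counts in any library.
*Hes5*, chr4:154960680-154960719, plus strand: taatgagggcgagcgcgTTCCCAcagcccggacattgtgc
*Hes5*, chr4:154960824-154960863, plus strand: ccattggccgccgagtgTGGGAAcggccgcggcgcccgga
*Hes7*, chr11:69120256-69120295, plus strand: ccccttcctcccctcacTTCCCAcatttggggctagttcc
*Hey2*, chr10:30842968-30843007, minus strand: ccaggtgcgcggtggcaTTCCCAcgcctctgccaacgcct

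*Hes5* holds 2 matches, on opposite strands, at 226 and 82 bases before the start, and 0.16% of all promoters hold GTGGGAA 2 times or more. A match in these letters is a description of the sequence and not of binding.

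Of 8 coactivators, 3 rose and 2 fell. *Maml2*, a Mastermind coactivator that bridges the Notch and RBPJ complex to histone acetyltransferases, had the largest change of the 57 genes. Its normalized counts were 254.6 and 338.7 in WT and 54.0 and 45.4 in the KO-labelled libraries, or -2.58 ± 0.29 (SE) on the log2 scale (DESeq2 adjusted p = 5.9e-17). The sister genes *Maml1* and *Maml3* were not called, at -0.08 and -0.42. The acetyltransferase genes *Kat2b* and *Ep300* rose by log2 fold changes of 0.56 and 0.34, the former with copies over 51.8% of its exonic bases. *Snw1*, which encodes a splicing factor also known as a partner of RBPJ, was lower, at -0.42, and a gene on the other strand covers 42.36% of its exonic bases.

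Of 16 corepressor genes, 5 rose, *Spen* among them, and 3 fell. *L3mbtl3*, whose product binds RBPJ and recruits a histone demethylase, had 537 ± 47.4 normalized counts in WT and 169 ± 6.32 in the KO-labelled libraries (SD, n = 2), or -1.67 ± 0.19 (SE) on the log2 scale. *Fhl1*, a LIM domain gene with an RBPJ-binding isoform, had 2310 ± 359 and 1102 ± 27.0, at -1.07 ± 0.12. *Sin3a*, the scaffold of a histone deacetylase complex, rose from 9178 ± 279 to 14876 ± 358, at 0.70 ± 0.07. Among all genes of this list, *L3mbtl3* and *Fhl1* were the 2 called lower at the study's thresholds.

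Of 10 genes for receptor proteases 2 rose and 0 fell in DESeq2, while edgeR called 3 higher and 3 lower. *Ncstn*, a subunit of gamma-secretase, rose by a log2 fold change of 0.36, and *Aph1a*, another subunit, by 0.28, with copies over 71.3% of its exonic bases. Of 5 genes for enzymes that add sugars to the receptor, the Fringe genes among them known to tune its choice of ligand, *Rfng* and *Pofut1* rose by 0.82 and 0.24 on the log2 scale and *Poglut1* and *Mfng* fell by 0.55 and 0.38. *Lfng* was not called. Normalized counts of *Rfng* were 273.1 and 445.4 in WT and 724.4 and 547.0 in the KO-labelled libraries. With a block on the replicate number in DESeq2, *Poglut1* alone of these genes kept its call.

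Of 12 genes for trafficking and turnover 1 rose and 3 fell in DESeq2. The 3 that fell were all Deltex genes, which encode ubiquitin ligases acting on the receptor: *Dtx4* at -1.45 ± 0.25, *Dtx1* at -0.90 ± 0.16 and *Dtx3* at -0.36 ± 0.12 (log2 fold change ± SE). *Dtx1*, a Notch target in lymphocytes, went from 704.0 and 632.7 normalized counts in WT to 373.5 and 342.8. *Dtx2* was not called, and *Neurl1a*, a ubiquitin ligase acting on ligands, rose by 0.60. In this list edgeR called 1 higher and 5 lower, adding *Numbl* and *Fbxw7* to the Deltex genes. DESeq2 with chromosome medians removed called *Numbl* and *Fbxw7* lower as well. With chromosome medians removed, 10 of the 25 calls were lost in DESeq2 and 8 other genes were gained, so that 8 were higher and 15 lower. Among the genes named above the lost calls were *Jag2*, *Snw1*, *Aph1a*, *Pofut1*, *Neurl1a* and *Dtx3* (adjusted p = 0.152, 0.667, 0.207, 0.369, 0.34 and 0.955), and the others were *Kat2a*, *Hdac3*, *Tle1* and *Tle4* (0.0943, 0.0521, 0.636 and 0.0992).

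**Figure D4:**
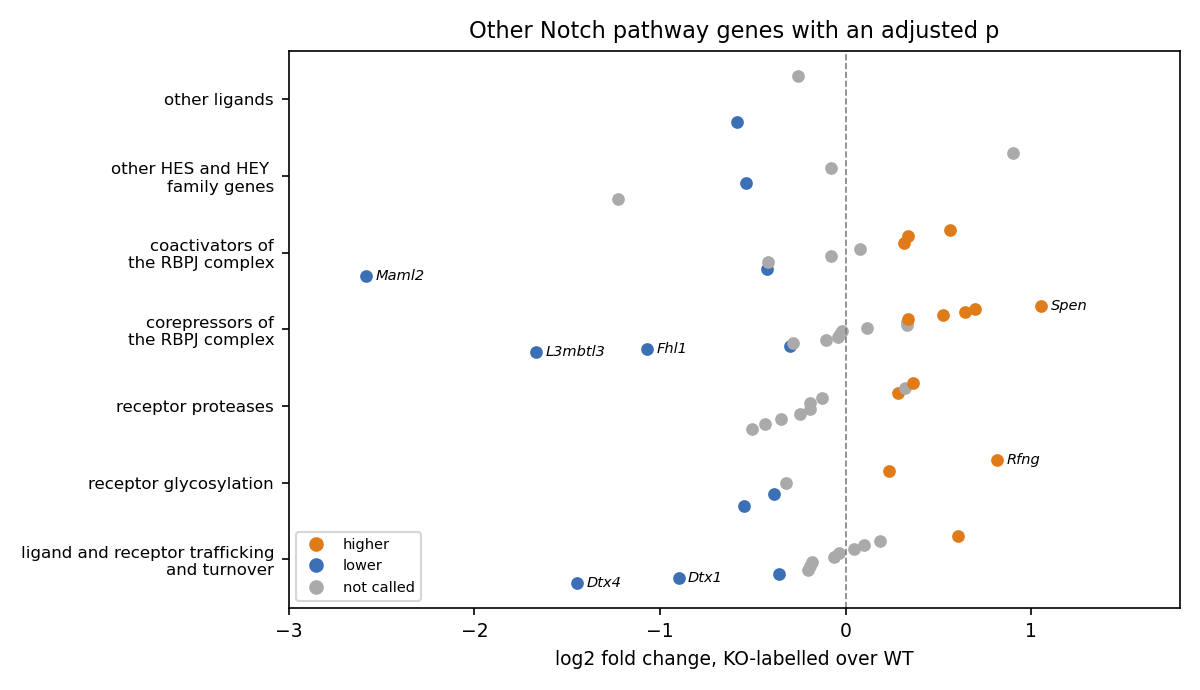
Log2 fold change (KO-labelled over WT) of the 57 other Notch pathway genes with an adjusted p, 1 point a gene, by role, orange where higher, blue where lower and grey where not called. *Maml2*, at -2.58, lies farthest from 0, and the coactivator and corepressor lists each hold genes that moved either way.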

How the data were processed

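Paired reads of 75 bases from stranded, ribosomal RNA-depleted libraries were mapped by the authors to mm9 with STAR and assigned to GENCODE vM1 genes with featureCounts. The deposited values are raw counts per gene, without normalization. Software versions, the strand setting and the rule for multiply matching reads were not given in the sources used here. There were 0 columns without a sample.

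Genes were tested on the whole table in R 4.3.3 with DESeq2 1.42.0 (group as the only term, Wald test, default size factors and filtering, Benjamini-Hochberg adjustment) and with edgeR 4.0.16 as an alternative. The study's methods name DESeq2 and its thresholds. Both those and an adjusted p under 0.05 were used. Intervals are 95% Wald intervals. The fit was tested on simulated data, with 200 genes changed among those with a mean of at least 50. At an adjusted p under 0.05 it recovered 52.2% of 1.5-fold, 73.1% of 2-fold and 86.4% of 4-fold changes, with 12 false calls. Per-length levels (FPKM) used union exonic length and total counts. Copies were sought with BLAST+ 2.17.0 (at least 95% identity over at least 50 bases). The 10 genes, the pathway and marker lists and the tests were chosen with earlier results of these data known. Pathway genes named were *Spen* and, in each list, up to 4 called genes of largest absolute change with a mean of at least 50. Other genes were named after their values were seen. All 61 pathway symbols and 33 of 36 marker symbols matched 1 annotated gene. Alternatives were a low-count filter, size factors by TMM or upper quartile, a replicate block, chromosome medians removed, each library left out, a test against a 1.5-fold change and another gene length.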

Additional observations from a re-analysis of the deposited data

How the results depend on the processing

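*Notch3*, *Notch4*, *Hes1* and *Hey1* kept their direction and their side of the threshold under TMM and upper-quartile size factors, the low-count filter, edgeR, the replicate block and removal of chromosome medians, and so did *Notch2*. No fold change reversed in any alternative. Replicate numbers do not pair the libraries (correlation of deviations -0.018 across 13306 genes). Under a block on that number, *Jag1* (-0.37, adjusted p = 0.0577) and *Rbpj* (0.20, 0.128) were no longer called in DESeq2, which left 1 gene higher. *Rbpj* was also lost in edgeR (0.18, 0.0515) and with chromosome medians removed (0.14, 0.13), again leaving 1 higher; the cause was not tested. With chromosome medians removed 8 other pathway genes were higher and 15 lower, and under the replicate block 10 and 8. The block ended the calls of *Snw1*, *Tle1*, *Aph1a*, *Rfng*, *Pofut1*, *Mfng* and *Dtx3* (DESeq2 adjusted p = 0.0563, 0.127, 0.154, 0.28, 0.194, 0.144 and 0.0846).

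Leaving out single libraries assumes that the lone library of a group varies like the others. Log2 fold changes then ran from -0.42 to -0.30 for *Notch2*, -0.43 to -0.30 for *Jag1*, 0.14 to 0.27 for *Rbpj* and -1.5 to -1.32 for *Hey1*. Between 1 and 2 genes were then higher and 2 to 4 lower, and 8 to 10 other pathway genes higher and 7 to 8 lower. DESeq2 tested against a 1.5-fold change, at an adjusted p under 0.05 with no other fold minimum, called 0 of the 10 genes, a count that was also 0 at the study's thresholds and so says nothing of stability.

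With the longest transcript as gene length, per-length levels in WT and in the KO-labelled libraries were 4.24 and 3.98 for *Notch1*, 5.95 and 9.59 for *Notch4*, 0.339 and 0.380 for *Dll1*, 62.0 and 71.2 for *Rbpj* and 10.5 and 6.21 for *Hes1*, and 5.34 for *Jag1* in WT. Receptor shares were 21.5% and 19.7% for *Notch1*, 28.7% and 21.9% for *Notch2*, 19.7% and 10.8% for *Notch3* and 30.1% and 47.6% for *Notch4*, so *Notch4* then led in both groups. Depth limits *Dll1*, *Nrarp* and *Hey1*, at 40 to 88 counts a library.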
